A study of Homo sapiens with 6 samples.

Results

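The 39 genes of the core autophagy machinery and its cargo receptors were followed in the cervical carcinoma line SiHa, which carries human papillomavirus, when the lipid transfer gene VPS13C was knocked down under cisplatin. The genes were taken by symbol from the deposited gene table. All 39 were found among the 17156 genes listed, and all 39 were among the 12671 genes that passed the filter on low counts. The 3 shVPS13C libraries came from VPS13C knockdown cells and the 3 shcontrol libraries from control cells, and all 6 received cisplatin, a DNA-crosslinking platinum compound, at 20 µM for 48 h. No untreated cells are compared here, so a response to the drug itself was not measured. The labels do not say which short hairpin was used, whether the lines were clones or whether the libraries of a group came from separate cultures, so the tests reflect the spread among these libraries, which may be technical.

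Macroautophagy encloses cytoplasm and organelles in a double membrane, the autophagosome, and delivers it to the lysosome. The ULK kinase complex starts the process, a class III phosphatidylinositol 3-kinase marks the membrane with the lipid PI3P, and WIPI proteins read that mark. A ubiquitin-like conjugation system then attaches the ATG8 proteins (the LC3 and GABARAP families) to phosphatidylethanolamine, where receptors such as SQSTM1 dock with their cargo. Autophagosome growth draws on bridge-like lipid transfer proteins of the ATG2 type, relatives of VPS13C, and much of the regulation of autophagy acts on proteins, which were not measured here. Only transcript levels are described.

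Total estimated counts per library lay between 15643965 and 16333424, and the 39 genes together took 0.404% to 0.415% of them. The targeted gene was checked first. VPS13C (Entrez 54832, chr15:61852389-62060447 on GRCh38) had 23.7, 25.1 and 27.5 counts per 1e6 counts (CPM) in shVPS13C libraries, against 50.0, 54.9 and 49.6 CPM in shcontrol libraries. The groups lay far apart, with a log2 fold change of -1.02 (SE 0.065, edgeR quasi-likelihood adjusted p = 4.77e-10). Keratin genes of epithelial cells were abundant in both groups: the 10 epithelial markers summed to 5927 to 6149 CPM in shVPS13C libraries and 5775 to 6314 CPM in shcontrol libraries, although the basal keratin genes KRT5 and KRT14 were at or near 0. Within that sum, the cadherin gene CDH1 rose (log2 0.27, edgeR adjusted p = 0.00359), while KRT17 and KRT19 had lower values without overlap that did not pass (log2 -0.11 and -0.21, adjusted p = 0.114 and 0.0508). The 6 fibroblast markers summed to 20.0 to 22.9 CPM in shVPS13C libraries and 15.6 to 16.2 CPM in shcontrol libraries, almost all of it COL1A1, which rose (log2 0.43, edgeR adjusted p = 0.00171). The 5 immune markers summed to 87.5 to 89.4 CPM in shVPS13C libraries and 80.2 to 82.1 CPM in shcontrol libraries, nearly all of it CD14, which rose (log2 0.34, edgeR adjusted p = 0.00513), and CD68, and the defining leukocyte gene PTPRC was at 0 counts in all 6. The 4 endothelial markers summed to 2.14 to 3.999 CPM in shVPS13C libraries and 3.08 to 3.32 CPM in shcontrol libraries. The part of these markers in the results was not tested. In bulk RNA, fewer cells with a transcript and less transcript per cell cannot be told apart.

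Transcripts of the autophagy machinery differed little between shVPS13C and shcontrol cells. Of the 39 genes, 1 fell (ATG3), 0 rose and 38 did not pass, a share of 2.56%, where 4.50% of all genes tested were called (2.27% higher and 2.23% lower; edgeR quasi-likelihood test, two-sided, Benjamini-Hochberg adjusted p under 0.05 over all 12671 genes). At an unadjusted p under 0.05, 4 of the 39 stood apart, against 18.9% of all genes tested. The median log2 fold change of the 39 genes was -0.0012, beside -0.0010 over all genes tested, with 19 above 0 and 20 below. Fold changes ranged from -0.19 (RB1CC1) to 0.34 (ATG10) on the log2 scale, and 5 of the 39 (12.8%) lay beyond 1.1-fold in either direction, beside 24.0% of all genes. The 95% confidence interval of the fold, taken gene by gene, lay wholly within 1.25-fold either way for 36 of the 39 (92.3%), beside 74.0% of all genes tested. The 3 exceptions were ATG7, ATG10 and MAP1LC3A, each with an interval reaching beyond 1.25-fold on the higher side. Shares beyond 1.1-fold or within 1.25-fold depend on the counts per gene, and the 39 genes were not matched to all genes on these. The part of count level in the gaps was not tested. CPM of the groups did not overlap in 7 of the 39, 3 higher and 4 lower in shVPS13C, where 23.1% of all genes showed no overlap (11.8% higher and 11.3% lower).

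**Figure D1:**
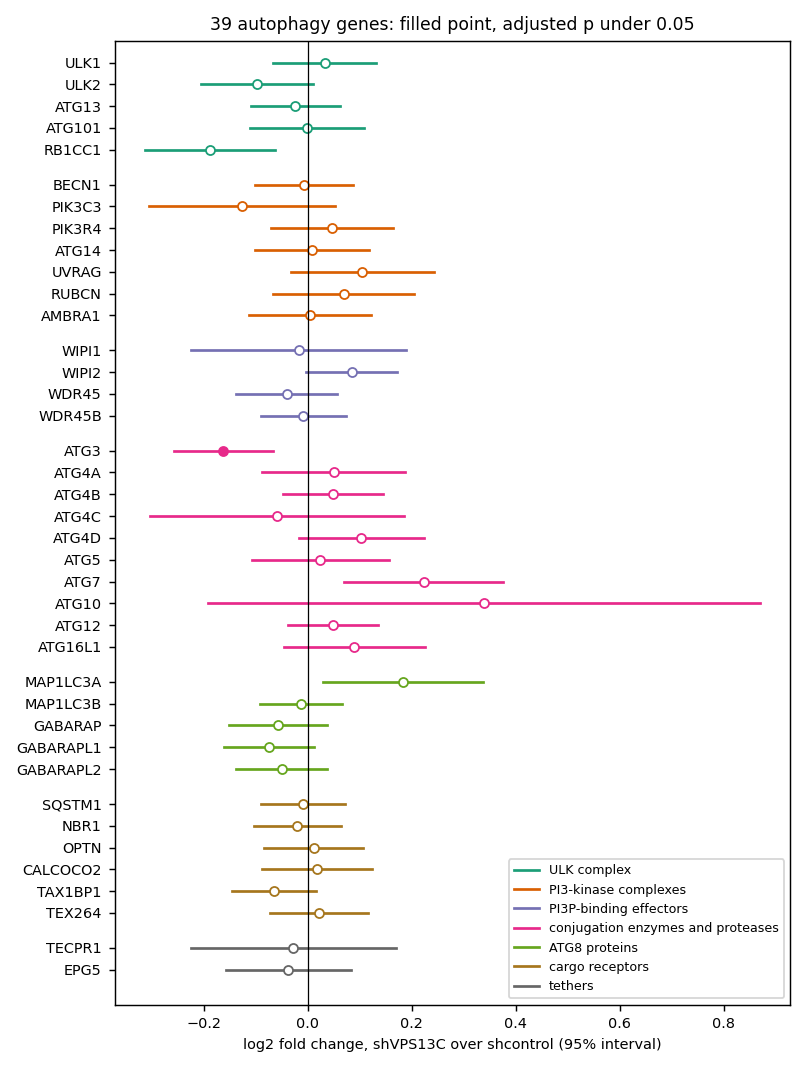
Log2 fold changes (shVPS13C over shcontrol, x axis) of the 39 autophagy genes with 95% confidence intervals from the edgeR fit, n = 3 libraries each, coloured by subgroup. ATG3, at -0.16, is the filled point past the adjusted threshold, and most other intervals cross 0.

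**Figure D2:**
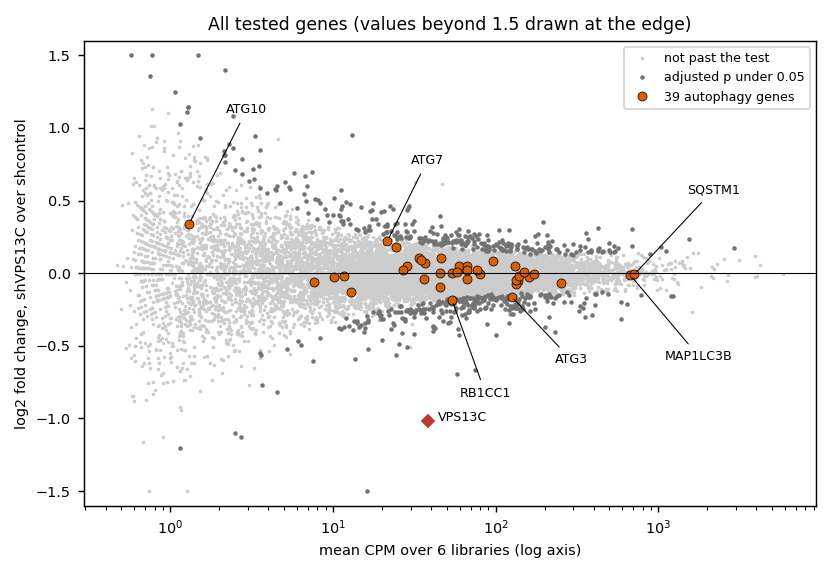
Log2 fold change (shVPS13C over shcontrol, y axis) against mean CPM over the 6 libraries (log axis) for the 12671 genes tested. The 39 autophagy genes (orange) lie between -0.19 and 0.34, while VPS13C (red diamond) lies at -1.02.

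The conjugation system held the single call. ATG3, the conjugating enzyme that hands ATG8 proteins to phosphatidylethanolamine (Entrez 64422, chr3:112532510-112561962 on GRCh38), had 122.9, 114.7 and 117.2 CPM in shVPS13C libraries, against 123.4, 138.5 and 135.4 CPM in shcontrol libraries. The groups did not overlap, but shVPS13C library 1 and shcontrol library 1 almost touched. ATG3 averaged 118 ± 4.18 CPM in shVPS13C and 132 ± 7.94 CPM in shcontrol libraries (SD, n = 3 each), which is -0.16 as a log2 ratio with an SE of 0.046 (95% interval -0.26 to -0.07, adjusted p = 0.0437 by edgeR). The call is narrow: DESeq2 gave an adjusted p of 0.0732 and limma-trend on log2(FPKM + 1) 0.121, and the call held without shcontrol library 1 but ended without any other single library (edgeR adjusted p 0.0782 to 0.183). It also held with no filter on low counts (0.0142) and with robust dispersion (0.026), so 3 of the 13 alternatives run kept it, over adjusted p-values from 0.0115 to 0.222. ATG3 stayed lower in shVPS13C in all 13, by 0.13 to 0.21 on the log2 scale.

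The promoter of ATG3 is shown because it belongs to the single gene past the test and carries the palindromic E-box CACGTG, the core bound by the MiT/TFE factors (TFEB and relatives) and by other basic helix-loop-helix proteins. The sequence is RefSeq's for GRCh38.p14, minus strand, from 250 bases before to 50 bases after the annotated start, with E-boxes in capitals.
ATG3, chr3:112561913-112562212: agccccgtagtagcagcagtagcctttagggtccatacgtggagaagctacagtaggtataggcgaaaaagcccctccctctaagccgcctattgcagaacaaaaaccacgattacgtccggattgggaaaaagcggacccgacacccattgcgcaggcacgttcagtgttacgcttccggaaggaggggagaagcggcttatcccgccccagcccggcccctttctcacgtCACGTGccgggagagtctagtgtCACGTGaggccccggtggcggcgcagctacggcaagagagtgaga
The first E-box begins 18 bases before the start site and the second at base 6 after it. RefSeq's promoter table held windows for 33 of the 39 genes, and ATG14, a subunit of the autophagy-specific kinase complex, was the other one with an E-box, given here with 10 flanking bases on each side.
ATG14, in chr14:55411781-55412080, minus strand: aacaaaatccCACGTGactggctctc
ATG14 had a log2 fold change of 0.01 (edgeR adjusted p = 0.959), against -0.16 for ATG3. E-boxes were thus in 6.06% of the 33 genes, beside 8.78% of the 27305 genes in the table. A pair of other motifs was searched on both strands without regard to overlap. The antioxidant response element core TGACNNNGC, the core read by NRF2, was in 12.1% of the 33 genes (ATG101, CALCOCO2, MAP1LC3B and TECPR1) and 16.1% of all genes. The C/EBP-ATF core TGATGNAA was in 3.03% (WDR45) and 4.46%. None of these 5 genes passed the test (edgeR adjusted p 0.692 to 0.992), and a match is a run of letters, not a shown binding site.

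ATG7, the enzyme that activates both ATG8 proteins and ATG12, stood on the other side. It had 22.2, 23.5 and 24.2 CPM in shVPS13C libraries, against 20.4, 18.3 and 21.2 CPM in shcontrol libraries. All 3 shVPS13C libraries lay above all 3 shcontrol libraries, with a log2 ratio of 0.22 and an SE of 0.074 (95% interval 0.07 to 0.38), but the edgeR adjusted p was 0.0932. The authors' FPKM, which divides by an estimated transcript length, gave a smaller difference: 7.65, 7.67 and 7.70 FPKM in shVPS13C libraries, against 7.49, 6.80 and 7.59 FPKM in shcontrol libraries, and limma-trend on log2(FPKM + 1) gave 0.07 on that scale (adjusted p = 0.619). Of the 50-base stretches in ATG7 transcripts of GENCODE release 29, 22.5% also occur in VGLL4, a gene on the opposite strand, and no use of strand is given in the sources used here. VGLL4 itself had a log2 fold change of -0.09 (adjusted p = 0.415).

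The other 8 conjugation enzymes and proteases did not pass. ATG10, the conjugating enzyme for ATG12, was the lowest of the 39 genes: 1.593, 1.397 and 1.377 CPM in shVPS13C libraries, against 1.17, 1.07 and 1.22 CPM in shcontrol libraries. The groups did not overlap, but at this depth the interval ran from -0.19 to 0.87 around a log2 fold change of 0.34 (adjusted p = 0.512); ATG10 was picked for mention once its value was known. ATG4D, one of the cysteine proteases that trim ATG8 proteins, had 47.7, 49.8 and 46.6 CPM in shVPS13C libraries, against 45.9, 40.9 and 47.3 CPM in shcontrol libraries. Its groups overlapped through shcontrol library 3 (log2 0.10, adjusted p = 0.356), and 12.7% of its stretches are shared with KRI1 on the opposite strand (log2 -0.16, adjusted p = 0.0508). ATG16L1, which places the ATG12-ATG5 conjugate on the membrane, had 35.4, 35.0 and 37.1 CPM in shVPS13C libraries, against 30.5, 36.2 and 34.4 CPM in shcontrol libraries, and the groups overlapped (log2 0.09, adjusted p = 0.497). ATG12 and ATG5, the partners in that conjugate, had log2 fold changes of 0.05 and 0.02, and the proteases ATG4A, ATG4B and ATG4C of 0.05, 0.05 and -0.06. Of the 10 enzymes and proteases, 8 had a value above 0, where 49.6% of all genes tested lay above 0. Their median log2 fold change was 0.05, below their median SE of 0.065. Their summed FPKM went the other way, with a ratio, shVPS13C over shcontrol, of 0.979, and no lean of the subgroup was tested.

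Among the ATG8 proteins, MAP1LC3A had a log2 fold change above 0 and the other 4 genes values below 0, and none passed the test (edgeR, with 1 at an unadjusted p under 0.05; DESeq2 and limma-trend also called 0). Counts of 0 and 1 among 5 are near the background, 4.50% called and 18.9% at that unadjusted p over all genes tested. MAP1LC3A had 26.4, 28.1 and 23.8 CPM in shVPS13C libraries, against 24.1, 21.4 and 23.4 CPM in shcontrol libraries. The groups overlapped through shVPS13C library 3 and shcontrol library 1, and the log2 ratio was 0.18 with an SE of 0.075 (95% interval 0.03 to 0.34, adjusted p = 0.177 by edgeR). GABARAPL1 had 124, 132 and 132 CPM in shVPS13C libraries, against 133, 138 and 136 CPM in shcontrol libraries. Its groups did not overlap, yet shVPS13C libraries 2 and 3 came close to shcontrol library 1 (log2 -0.07, adjusted p = 0.348). GABARAP and GABARAPL2 had log2 fold changes of -0.06 and -0.05, with overlapping groups.

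MAP1LC3B, the most abundant of the 39 genes per length and the usual marker of autophagosomes at the protein level, had 693, 654 and 659 CPM in shVPS13C libraries, against 689, 671 and 664 CPM in shcontrol libraries. The groups overlapped, and the interval of the log2 fold change (-0.01) ran from -0.09 to 0.07 (adjusted p = 0.896). Of its 50-base stretches 8.93% are also in the near-identical copy MAP1LC3B2, which had 1.81 CPM on average over the 6 libraries. Per length, the order MAP1LC3B, GABARAPL2, GABARAP, GABARAPL1, MAP1LC3A held in each of the 6 libraries. In share of the summed FPKM of the 5 genes, MAP1LC3B made up 46.2%, 44.0% and 44.7% in shVPS13C libraries, against 45.5%, 44.9% and 43.5% in shcontrol libraries. MAP1LC3A made up 4.82%, 5.13% and 4.402% in shVPS13C libraries, against 4.34%, 3.88% and 4.17% in shcontrol libraries, so its share lay higher in each shVPS13C library. That difference was 0.653 percentage points by FPKM and 0.325 by CPM. The values are not on a like base, since CPM is not divided by length. The ratio of mean MAP1LC3A levels, shVPS13C over shcontrol, was 1.14 on both scales. The summed FPKM was 805, 792 and 787 in shVPS13C libraries, against 808, 804 and 814 in shcontrol libraries, and shVPS13C library 1 lay within the range of the shcontrol group.

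**Figure D3:**
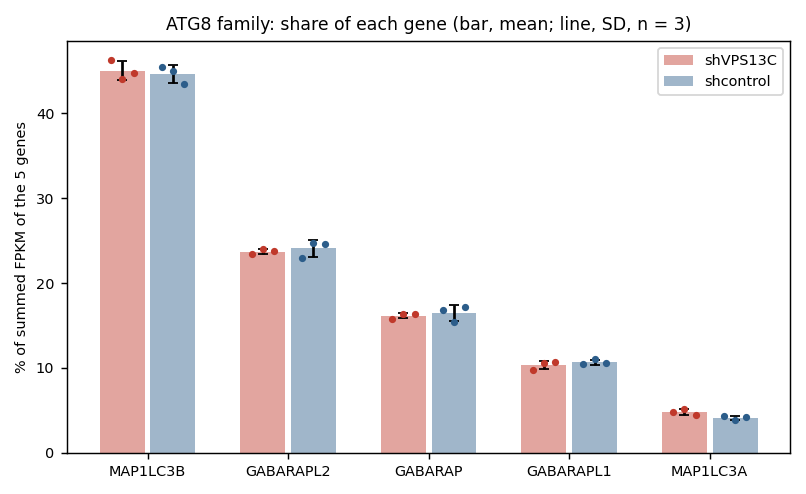
Share of each ATG8 gene (y axis, % of the summed authors' FPKM of the 5 genes) in shVPS13C and shcontrol libraries; bars are means, lines SD (n = 3) and points single libraries. MAP1LC3A averaged 4.78% in shVPS13C and 4.13% in shcontrol libraries, and MAP1LC3B was the main transcript in both.

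The initiation genes gave 0 calls among 16 (edgeR, with 1 at an unadjusted p under 0.05; DESeq2 and limma-trend also called 0), a count near the 4.50% called over all genes, of which 18.9% had an unadjusted p under 0.05. Within the ULK complex, RB1CC1, the scaffold also known as FIP200 (Entrez 9821), had 48.9, 48.8 and 53.7 CPM in shVPS13C libraries, against 58.1, 62.3 and 51.9 CPM in shcontrol libraries. The groups overlapped because shVPS13C library 3 exceeded shcontrol library 3, and the log2 ratio was -0.19 with an SE of 0.061 (95% interval -0.31 to -0.06, adjusted p = 0.081 by edgeR). RB1CC1 passed without shcontrol library 3 (log2 -0.26, adjusted p = 0.0129) and with no filter on low counts (adjusted p = 0.0258), over a range of 0.0129 to 0.369 in 13 alternatives. ULK2, a kinase related to ULK1, had 44.5, 43.3 and 44.6 CPM in shVPS13C libraries, against 47.5, 47.5 and 46.6 CPM in shcontrol libraries. Its groups did not overlap, with a narrow spread in each, but the difference of -0.10 did not pass (adjusted p = 0.324). ULK1, ATG13 and ATG101 had log2 fold changes of 0.03, -0.02 and -0.0012; ATG101, the most abundant of the complex per length, averaged 50.0 FPKM in shVPS13C and 49.5 FPKM in shcontrol libraries.

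The phosphatidylinositol 3-kinase genes had a median log2 fold change of 0.01 over 7. PIK3C3, the catalytic subunit, was low at 11.6, 12.6 and 12.6 CPM in shVPS13C libraries, against 14.1, 13.1 and 13.0 CPM in shcontrol libraries. The groups did not overlap, with a log2 fold change of -0.13 (adjusted p = 0.455). UVRAG, a subunit of the endosomal form of the complex, had 32.4, 36.1 and 35.8 CPM in shVPS13C libraries, against 29.96, 34.5 and 32.4 CPM in shcontrol libraries, and its groups overlapped (log2 0.11, adjusted p = 0.419). BECN1, the beclin subunit and the most abundant of the group per length, averaged 80.0 ± 1.45 CPM in shVPS13C and 80.3 ± 3.32 CPM in shcontrol libraries (SD, n = 3 each), a log2 fold change of -0.01 with an interval from -0.10 to 0.09. RUBCN, a negative regulator of the endosomal complex, PIK3R4, ATG14 and AMBRA1 lay between 0.0044 and 0.07 on the log2 scale. The 4 readers of PI3P ranged from -0.04 to 0.08. WIPI2, which recruits ATG16L1, was the highest of them in fold, with 101, 99.5 and 98.4 CPM in shVPS13C libraries, against 95.9, 92.1 and 93.7 CPM in shcontrol libraries. All shVPS13C libraries lay above all shcontrol libraries, but the adjusted p was 0.283. WDR45B, the most abundant of the 4 per length, had 169, 171 and 172 CPM in shVPS13C libraries, against 176, 173 and 165 CPM in shcontrol libraries, with overlapping groups (log2 -0.01).

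**Figure D4:**
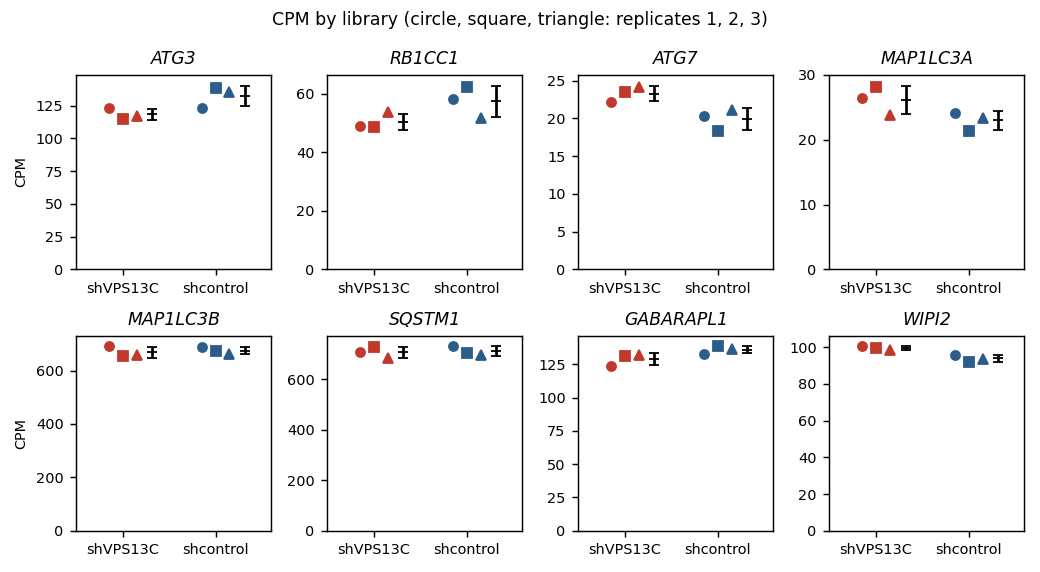
CPM (y axes, from 0) of 8 named genes in the 3 shVPS13C and 3 shcontrol libraries, with mean and SD (n = 3) beside the points. ATG3 runs from 114.7 to 122.9 in shVPS13C and 123.4 to 138.5 in shcontrol libraries, while the groups overlap for SQSTM1 and MAP1LC3B.

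The 6 cargo receptors lay between -0.06 and 0.02 on the log2 scale. None passed the test by edgeR, DESeq2 or limma-trend, and 0 had an unadjusted p under 0.05 by edgeR. With 4.50% of all genes called and 18.9% at that unadjusted p, a count of 0 among 6 is near the background. SQSTM1, the receptor also called p62, which is itself degraded by autophagy and transcribed under NRF2, had 707, 730 and 686 CPM in shVPS13C libraries, against 734, 706 and 697 CPM in shcontrol libraries. The groups overlapped, and the log2 fold change of -0.01 had an interval from -0.09 to 0.07 (adjusted p = 0.93). Of its 50-base stretches, 37.5% are also in MRNIP, a gene on the opposite strand with 4.68 CPM on average over the 6 libraries. TAX1BP1, a receptor for ubiquitinated aggregates, had 244, 238 and 257 CPM in shVPS13C libraries, against 256, 262 and 256 CPM in shcontrol libraries, with shVPS13C library 3 inside the shcontrol range (log2 -0.06, adjusted p = 0.395). NBR1, OPTN, CALCOCO2 (the receptor NDP52) and TEX264, a receptor for the endoplasmic reticulum, had log2 fold changes of -0.02, 0.01, 0.02 and 0.02. Summed over the 6 receptors, FPKM was 543, 545 and 543 in shVPS13C libraries, against 548, 546 and 545 in shcontrol libraries. The tethers, which link autophagosomes to lysosomes, were low per length, with EPG5 at 3.02 FPKM in shVPS13C and 3.09 FPKM in shcontrol libraries on average. In counts, EPG5 had 35.4, 35.6 and 36.7 CPM in shVPS13C libraries, against 35.3, 37.7 and 37.6 CPM in shcontrol libraries. Its groups overlapped (log2 -0.04, edgeR adjusted p = 0.788), and TECPR1 had a log2 fold change of -0.03.

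Levels per length spanned a wide range that was shared by the groups. On the FPKM scale, MAP1LC3B (358 in shVPS13C, 361 in shcontrol libraries on average) and SQSTM1 (276 and 278) were highest, followed by GABARAPL2 (188 and 195), GABARAP (128 and 133) and ATG3 (86.4 and 98.0). MAP1LC3B lay above SQSTM1, SQSTM1 above GABARAPL2 and GABARAPL2 above GABARAP in every library, while TEX264, GABARAPL1 and TAX1BP1, between 77.1 and 93.7 FPKM in single libraries, overlapped with each other and with the lower libraries of ATG3. The lower end held the PI3-kinase catalytic subunit PIK3C3 (1.97 and 2.18), TECPR1 (2.01 and 1.85) and ATG10 (0.953 and 0.523). For ATG10 the ratio of mean FPKM was 1.82, against 1.26 for mean CPM. Among the 5 genes compared, the authors' FPKM and the CPM computed here from counts differ most for this gene. ATG10 was thinly covered, and its transcript shares differed as well. RefSeq transcript XM_005248611.5 took 54.85%, 38.52% and 56.12% of its counts in shVPS13C libraries, against 26.84%, 18.83% and 8.58% in shcontrol libraries. The part of coverage or transcript shares in that gap was not tested. The summed FPKM of the 7 subgroups had ratios, shVPS13C over shcontrol, from 0.979 in the conjugation enzymes to 1.018 in the tethers.

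**Figure D5:**
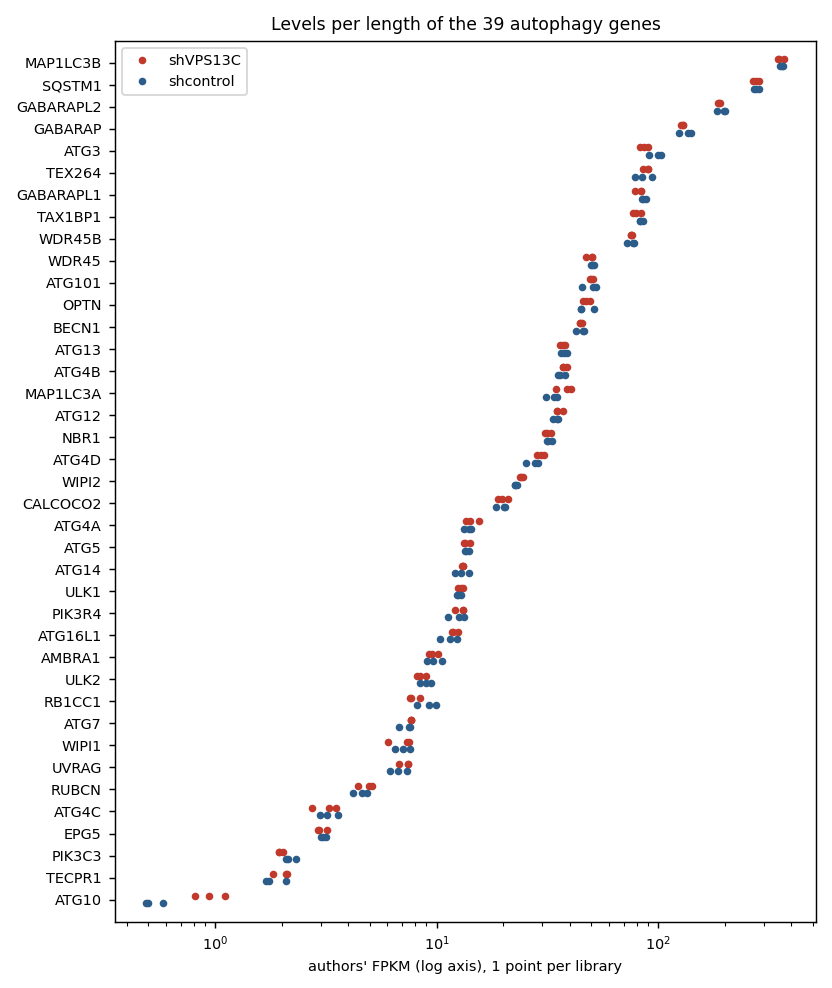
Authors' FPKM (log axis) of the 39 autophagy genes, 1 point per library, shVPS13C above shcontrol in each row. Levels run from 0.49 (ATG10) to 372 FPKM (MAP1LC3B), and the groups overlap or adjoin in most rows.

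Shared sequence limits some of these values. For genes on opposite strands this holds because no use of strand is known. Other sharing does not depend on strand: 30.5% of the exon bases of GABARAP and 13.9% of those of WDR45 overlap other genes on the same strand, and MAP1LC3B shares stretches with its copy MAP1LC3B2. Of the 39 genes, 12 share over 5% of their 50-base stretches with other genes, summed over all of them, among them GABARAP (49.9%), ATG101 (35.5%), BECN1 (28.6%) and WIPI1 (23.5%). ATG3 shares 2.1% with SLC35A5 on the opposite strand (log2 -0.01), and ULK2, RB1CC1, WIPI2 and MAP1LC3A share none.

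The second deposited table splits the counts over RefSeq transcripts, 271 of them for the 39 genes. These shares are estimates from 50-base reads, given as description with no test. The main ATG3 transcript, NM_022488.5, took 82.4%, 87.0% and 86.7% of the gene's counts in shVPS13C libraries, against 88.7%, 88.7% and 86.4% in shcontrol libraries, and NM_001278712.2 took 14.2%, 12.3% and 11.3% in shVPS13C libraries, against 9.79%, 9.86% and 10.6% in shcontrol libraries. The share of the minor transcript was higher in each shVPS13C library than in any shcontrol library. That is not particular to ATG3, and the transcripts without overlap were not counted over the 271 or over all genes. ATG13 transcript NM_014741.4, for one, took 5.44%, 5.54% and 6.37% in shVPS13C libraries, against 6.95%, 7.9% and 7.24% in shcontrol libraries. CALCOCO2 transcript NM_005831.5 did not overlap either. SQSTM1 counts fell almost wholly on NM_003900.5, with 98.8% in shVPS13C and 98.8% in shcontrol libraries on average. RB1CC1 was unstable between libraries: XM_011517646.3 took 18.8%, 16.1% and 35.9% in shVPS13C libraries, against 31.1%, 54.3% and 56.6% in shcontrol libraries, with overlap at shVPS13C library 3. ATG7 counts were spread over 28 of 30 transcripts, and the leading one, XM_024453315.1, took 15.9%, 21.1% and 14.8% in shVPS13C libraries, against 24.9%, 21.1% and 24.6% in shcontrol libraries.

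Other genes of the pathway were counted in the same way. Of 45 further autophagy genes, 40 were tested and 0 passed (edgeR; DESeq2 and limma-trend also called 0), where 4.50% of all genes tested were called. An unadjusted p under 0.05 was reached by 7 of the 40, a share close to the 18.9% of all genes tested. Their median log2 fold change was -0.01, with a range from -0.13 to 0.15. The 5 with the smallest p were SH3GLB1, a BAR-domain partner of UVRAG (75.1, 76.3 and 77.3 CPM in shVPS13C libraries, against 82.1, 83.4 and 82.7 CPM in shcontrol libraries; log2 -0.12, adjusted p = 0.126), MLST8, MTOR, TOLLIP and PRKAG2. MLST8, a subunit of the mTOR complexes, stood at 0.15 (adjusted p = 0.13) and the kinase MTOR, which restrains the ULK complex, at -0.10 (0.203). TOLLIP, an adaptor for ubiquitinated cargo, stood at 0.11 (0.194), and PRKAG2, a regulatory subunit of the energy sensor AMPK, at -0.13 (0.252). The lipid bridge genes ATG2A and ATG2B had log2 fold changes of 0.06 and 0.11 (adjusted p = 0.48 and 0.259), and the scramblase gene ATG9A of -0.05.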

How the data were processed

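Total RNA of 6 SiHa libraries was read as single-end 50-base reads on the DNBSEQ platform, per the labels. The submitters' processing notes name hg38; which aligner, counter and annotation were used, and whether strand was used, is not given in the sources used here. Deposited by the authors were estimated counts per gene and per RefSeq transcript, not scaled, and FPKM, scaled by the authors for length and library, per the file headers. Another 24 per-sample columns and 16 columns of means were not used. Counts (14.7% to 15.6% of values per library were not whole) were rounded, filtered with filterByExpr, scaled by TMM and tested with edgeR 4.0.16 (glmQLFit, 4 residual degrees of freedom, no covariate) in R 4.3.3; CPM and intervals come from that fit. Alternatives used DESeq2 1.42.0, limma 3.58.1 on log2(FPKM + 1) and log2(FPKM + 0.1), no filter, robust dispersion, a replicate block and leaving out each library. Replicate pairs differed beyond counting error (1.98 to 3.57 chi-square per degree of freedom). An exact permutation test over the 20 splits cannot go below p = 0.1. The steps were tested on simulated data in which all genes had the same dispersion, so that test does not bear on narrow calls such as ATG3.

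Described in full were VPS13C, members past the threshold, the 12 with the smallest p and, in each subgroup, the most abundant and the most changed at 5 CPM or more; of other autophagy genes, the 5 with the smallest p. Members and lists were chosen with earlier results of these data known. Promoters are RefSeq's (GRCh38.p14); shared stretches and exon overlaps come from GENCODE 29.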

Additional observations from a re-analysis of the deposited data

How the results depend on the processing

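The count of the 39 genes past the threshold, 1 in the edgeR fit, was 0 with DESeq2, with limma-trend on log2(FPKM + 1), on log2(FPKM + 0.1) and with no filter on FPKM, and with the replicate block, and 2 (ATG3 and RB1CC1) with no filter on counts. Without single libraries it was 0 to 1, and the 1 left without shcontrol 3 was RB1CC1, not ATG3. ATG3 stood at -0.1624 with DESeq2, -0.179 with log2(FPKM + 1), filtered or not, -0.1807 with log2(FPKM + 0.1) and -0.1616 (adjusted p = 0.0664) with the replicate block, and between -0.2106 and -0.128 without single libraries. Over all genes, 570 calls became 342 with DESeq2, 147 with log2(FPKM + 1), 151 with log2(FPKM + 0.1), 24 with no filter on FPKM, 758 with no filter on counts, 633 with robust dispersion, 483 with the replicate block and 204 to 463 without single libraries. The difference in the MAP1LC3A share was 0.3249 percentage points by CPM, a base not divided by length. Its ratio of mean levels, shVPS13C over shcontrol, was 1.14 by FPKM and by CPM. The medians of the 39 genes stayed between -0.0185 and 0.0167, and the call of VPS13C held in all 13 alternatives. Correlations of deviations (0.0403, -0.0070 and -0.15) did not show that replicate numbers pair the libraries. With 3 libraries per group they cannot exclude a pairing. Of the 3 shVPS13C libraries, 1 correlated best with its own number. Apart from ATG3, the block changed no call among VPS13C, the 39 genes and the further autophagy genes. The cause of these changes was not tested. Depth limits ATG10 most: its interval spans 0.875-fold to 1.83-fold.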

Other observations

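Some autophagy genes outside the 39 were close to undetected in these SiHa libraries. MAP1LC3C, another LC3 gene, had 0, 1 and 1 counts in shVPS13C libraries and 0 in each shcontrol library. DEPTOR, an mTOR inhibitor, had 0 to 4 counts per library, RUBCNL, a relative of RUBCN, 0 to 2, and BCL2, which binds beclin, 5 to 11, while BCL2L1, which binds it as well, averaged 451 CPM in shVPS13C and 460 CPM in shcontrol libraries. MAP1LC3C, DEPTOR, RUBCNL and BCL2 did not pass the filter on low counts, so they were not tested. A count of 3 corresponds to 0.184 to 0.192 CPM in these libraries.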
